A study of Homo sapiens with 12 samples.

Results

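The mitochondrial genome encodes 7 subunits of respiratory complex I, MT-ND1, MT-ND2, MT-ND3, MT-ND4L, MT-ND4, MT-ND5 and MT-ND6, and the contacts of the RNA-binding protein QKI (Quaking) with their transcripts are described here. The members are the eCLIP clusters on the mitochondrial chromosome (chrM) that carry at least 1 of these gene names in the annotation of the endogenous QKI libraries. There were 43 such clusters among 384347 in endogenous library 1 (117 on chrM) and 38 among 231844 in endogenous library 2 (102 on chrM). No measured fold was used to choose them.

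Complex I is the NADH dehydrogenase that passes electrons to ubiquinone and pumps protons across the inner mitochondrial membrane. Its mitochondrially encoded subunits form the core of the membrane arm, while nuclear genes encode the catalytic core of the matrix arm and all accessory subunits. Both strands of the mitochondrial genome are transcribed as long precursors, which are cut at the tRNAs that lie between most genes. MT-ND6 is the only protein-coding gene on its strand, and MT-ND4L and MT-ND4 share 1 bicistronic mRNA. QKI is a KH-domain protein known for binding ACUAAY-type elements in pre-mRNA, and QKI-5 is its mainly nuclear isoform.

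In eCLIP, RNA crosslinked to a protein by UV light is immunoprecipitated and sequenced beside a size-matched input. The series has 12 samples, of which the 6 immunoprecipitation libraries carry values and the 6 inputs enter through the authors' folds. Wild type libraries came from cells transfected with 10 µg of plasmid for myc-tagged QKI-5 and cultured for 72 hours, and mutant libraries from cells given the same protein carrying K120A and R124A, with positions counted in amino acids. Both were pulled down with anti-MYC antibody. Endogenous libraries came from unmodified cells and anti-QKI antibody, so antibody and transfection cannot be told apart from the tag. All cells were irradiated at 254 nm with 400 mJ/cm2, and each group had 2 libraries. Tagged protein was added to cells that still have their own QKI, and how much of either tagged protein the cells made was not analysed here. The labels name HEK293xT cells, a human embryonic kidney line, whereas the design note of the series speaks of stem cells differentiating to cardiomyocytes. None of 8 stem cell marker genes (POU5F1 and NANOG among them) had a cluster in either endogenous library, which does not measure their expression. Nothing in the labels says whether the libraries of a group are separate cultures, so p-values measure the spread between libraries, which may be technical.

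Each cluster has a log2 fold of immunoprecipitate over input and a −log10 p that stops at 400. Clusters with both values at 3 or more were called enriched. Myc files list only clusters above input, so a cluster that is not listed was either absent or not above input. Read depth is not known, and low folds are coarse. Positions are on chrM as the files number it under build hg19. The nuclear genome holds near-identical copies of these genes, so the assignment of reads between chrM and such copies is uncertain.

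Endogenous QKI libraries held enriched clusters on MT-ND5, MT-ND4, MT-ND3 and MT-ND2 in both libraries, on MT-ND1 in 1 of 2, and on neither MT-ND4L nor MT-ND6. Of the member clusters, 30 of 43 (69.8%) and 26 of 38 (68.4%) were enriched, where 4.22% and 5.39% of all clusters of these libraries were. No member cluster was below input, and 32 and 27 were at the p limit. Clusters were 2 to 134 bases long and covered 1740 and 1659 bases. By the annotation 80 of the 81 lay wholly in coding sequence. The exception, chrM:4429-4471, had 41 of its 43 bases in a noncoding exon and only 2 in the MT-ND2 coding sequence, with a log2 fold of 0.07.

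MT-ND5 encodes one of the proton-pumping subunits at the far end of the membrane arm, and it had the highest folds. All 11 of its clusters were enriched in each endogenous library, from 4.57 to 8.68 in library 1 and from 4.35 to 8.40 in library 2 on the log2 scale. Its leading cluster ranked 29th of 384347 and 37th of 231844 by log2 fold in the endogenous libraries. In the wild type libraries the leading MT-ND5 cluster ranked 58th of 226962 and 62nd of 273269, at 7.15 and 7.39. In the mutant libraries it ranked 180490th of 231814 and 84657th of 272728, at 0.30 and 1.45. MT-ND5 was thus among the top clusters of the 4 wild type and endogenous libraries and of neither mutant library.

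MT-ND4, another proton-pumping subunit, followed, with 8 of 8 clusters enriched in each endogenous library and a highest log2 fold of 6.24 and 6.42. MT-ND2, the third subunit of this kind, reached 5.52 and 5.37, with 3 of 4 and 3 of 3 clusters enriched. MT-ND3, a small subunit at the junction with the matrix arm, reached 5.71 and 5.05, with 5 of 5 and 4 of 4 enriched. The highest folds of MT-ND2 and MT-ND3 overlapped between libraries, so these neighbours had no settled order. MT-ND1, which lies by the ubiquinone site, reached 3.46 and 2.65, with 3 of 5 and 0 of 3 enriched. MT-ND4L, a small membrane subunit, reached 2.39 and 2.26, with 0 of 5 and 0 of 4 enriched. MT-ND6, also a membrane subunit, reached 0.74 and 0.79, with 0 of 5 enriched in each. Apart from MT-ND2 and MT-ND3, the ranges over the endogenous libraries did not overlap between neighbours in this order. These are folds over input, so they do not rank the amounts of the transcripts.

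To set the libraries side by side, endogenous member clusters that shared at least 1 base on a strand were merged into 23 loci, 21 on the plus strand and 2 of MT-ND6 on the minus strand. A locus took, per library, the overlapping cluster with the highest −log10 p, or the highest fold among ties. Wild type means differed from endogenous means by −1.32 to 1.20 at the loci measured in both, and no mutant fold on the 6 plus-strand genes was above 1.45. In the endogenous libraries 18 and 17 loci were enriched, in wild type 15 and 18 (16.5 ± 2.12, SD, n = 2), and in the mutant 0 and 0. Of 104130 loci across the genome with a cluster in both endogenous libraries, 12% and 10.2% were enriched in endogenous, 3.83% and 3.86% in wild type, and 0.0327% and 0.0413% in the mutant. Each wild type library had more enriched member loci than each mutant library. The exact permutation test (two-sided) gave p = 0.33, the smallest that 2 against 2 libraries allow.

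The median log2 fold over listed member loci was 4.65 and 4.60 in endogenous, 4.31 and 4.27 in wild type and 0.12 and 0.50 in the mutant. Over the loci across the genome the medians were 1.43 and 1.56, 1.53 and 1.44, and 0.66 and 0.81. The wild type mean of the member medians exceeded the mutant mean by 3.98, more than the spread between libraries (4.29 ± 0.03 against 0.31 ± 0.27, SD, n = 2 each; exact permutation p = 0.33). The mutant libraries differed in what they listed, with a cluster at 7 loci in library 1 and at 19 in library 2. These loci rest on 5 and 15 separate clusters. The median of 0.12 in mutant library 1 is the value of 1 MT-ND3 cluster that 3 loci share. With missing loci set to 0 the difference of 3.98 became 3.99. Wild type listed 23 and 22. Across the genome 44.5% and 44.4% of loci were listed in wild type and 11.3% and 12.4% in the mutant.

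**Figure D1:**
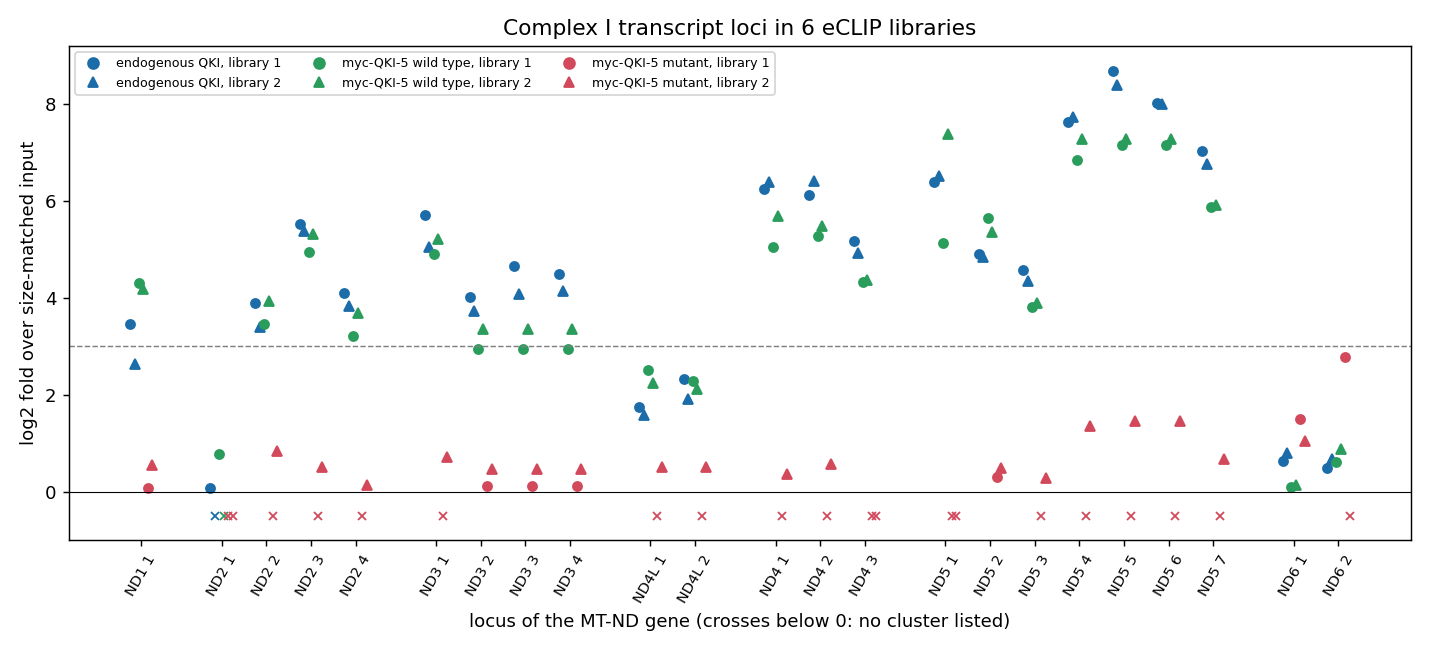
Log2 fold over size-matched input at the 23 loci, in 6 libraries (colour for the group, circle for library 1, triangle for library 2); the dashed line marks a log2 fold of 3 and crosses below 0 mark loci with no listed cluster. On the plus-strand genes wild type means differ from endogenous means by −1.32 to 1.20, mutant points there stay at or below 1.45, and only at MT-ND6 do mutant points lie above wild type points.

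The leading MT-ND5 locus, chrM:13674-13710, had a log2 fold of 8.68 and 8.40 in endogenous and 7.15 and 7.29 in wild type. It was not listed in mutant library 1 and was at 1.45 in mutant library 2. The 3 groups did not overlap there. The first MT-ND5 locus, chrM:12344-12441, was at 6.40 and 6.51 in endogenous but at 5.14 and 7.39 in wild type, and was listed in neither mutant library. This was the widest gap between the wild type libraries at any member locus.

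The leading MT-ND4 locus, chrM:10887-11032, was at 6.24 and 6.39 in endogenous, 5.06 and 5.68 in wild type, and not listed and 0.36 in the mutant. At MT-ND2 the leading locus, chrM:5097-5230, was at 5.52 and 5.37, 4.94 and 5.31, and not listed and 0.50. At MT-ND3 the leading locus, chrM:10079-10140, was at 5.71 and 5.05, 4.91 and 5.22, and not listed and 0.71. Wild type and endogenous values overlapped at MT-ND3, and wild type lay below endogenous at MT-ND4 and MT-ND2. The 3 other MT-ND3 loci share 1 cluster in each wild type library, at 2.95 and 3.37, so they are not separate measurements. Some MT-ND5 loci share clusters too, and the 15 and 18 enriched wild type loci rest on 14 separate clusters in each library. At those 3 MT-ND3 loci the wild type library 1 value falls just under the threshold of 3. This accounts for the lower count of 15 enriched loci in that library.

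At MT-ND1 the single locus, chrM:3727-3888, was at 3.46 and 2.63 in endogenous, 4.31 and 4.18 in wild type and 0.08 and 0.55 in the mutant. Here wild type lay above endogenous. The leading MT-ND4L locus, chrM:10535-10671, was at 2.32 and 1.91 in endogenous, 2.29 and 2.11 in wild type, and not listed and 0.50 in the mutant. It was above input in 5 of 6 libraries and enriched in none.

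By gene, the median over loci was higher in wild type than in the mutant for each plus-strand gene listed in both mutant libraries. The difference was 5.92 for MT-ND5 (6.58 ± 1.00 against 0.66 ± 0.50, SD, n = 2 each), 3.93 for MT-ND1 (4.24 ± 0.09 against 0.31 ± 0.33) and 2.87 for MT-ND3 (3.16 ± 0.29 against 0.29 ± 0.24). Each had an exact permutation p of 0.33. The MT-ND3 median of each of these libraries is the value of the cluster that 3 of its loci share. The MT-ND5 medians of mutant libraries 1 and 2 rest on 1 and 6 of 7 loci, so they do not cover the same loci. With missing loci set to 0 the MT-ND5 difference was 6.24. MT-ND2, MT-ND4 and MT-ND4L had no cluster in mutant library 1, and with missing loci set to 0 their differences were 3.42, 5.09 and 2.04.

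Of the 17 loci enriched in both endogenous libraries, all on the plus strand, 14 were enriched in wild type library 1 and 17 in library 2, and 14 in both. The share over 8000 such loci across the genome was 30.5%, 27.5% and 20.6%. None of the 17 was enriched in a mutant library (0.15% and 0.188% across the genome), and 4 and 15 had a listed mutant cluster.

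Enriched bases were compared only between the outer endogenous coding loci of each gene, so wild type bases beyond them were not counted. Bases enriched in both endogenous libraries numbered 1120 and in both wild type libraries 1127, and 925 were shared, 82.6% of the former and 82.1% of the latter. Over the whole genome, without such stretches, the shares were 17.0% of 962207 endogenous bases and 64.8% of 252351 wild type bases. The member shares of wild type bases, here and by gene, can be raised by the choice of stretches. They are not measured like the 64.8%. For MT-ND5 the shares were 90.3% and 90.5%, and for MT-ND2 95.1% and 90.7%. For MT-ND4 they were 81.4% and 97.8%, and for MT-ND3 42.4% and 96.8%. At MT-ND1 132 bases were enriched in both wild type libraries and 0 in both endogenous libraries, so none were shared. No base was enriched in both mutant libraries. The midpoint of the leading wild type cluster lay between −9 and 6.5 bases from that of endogenous library 1 at MT-ND1, MT-ND2 and MT-ND3. At MT-ND4L the leading wild type clusters lay at −154 and −152 bases, towards the 5′ end. At MT-ND4 they lay at 136 and 15 bases. At MT-ND6 they lay at 154 and 152 bases in chrM numbering, which on its minus strand is also towards the 5′ end. At MT-ND5 that of wild type library 1 lay at 20 bases and that of library 2 at −1289.5 bases, in the first locus. The endogenous libraries also differed from each other. Endogenous library 2 lay at −24.5 bases at MT-ND1, −13 at MT-ND4L, 91.5 at MT-ND4 and −27.5 at MT-ND6 (chrM numbering). At MT-ND2, MT-ND3 and MT-ND5 it lay between 0.5 and 11.5 bases.

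Between the outer endogenous coding loci of a gene, a few wild type clusters had no endogenous cluster under them. MT-ND4 had 1 in each wild type library, at 2.58 and 2.70, and MT-ND2 had 2 in wild type library 1, up to 3.76. Just outside this stretch of MT-ND4, on the 5′ side, wild type library 1 listed clusters of 2.90 and 2.82 and library 2 listed 3 clusters of up to 3.19. On the 3′ side of MT-ND2, library 2 listed 1 of 3.01. No library listed a cluster on the opposite strand between the outer endogenous coding loci of any of the 7 genes. The rest of each gene was not checked for this.

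**Figure D2:**
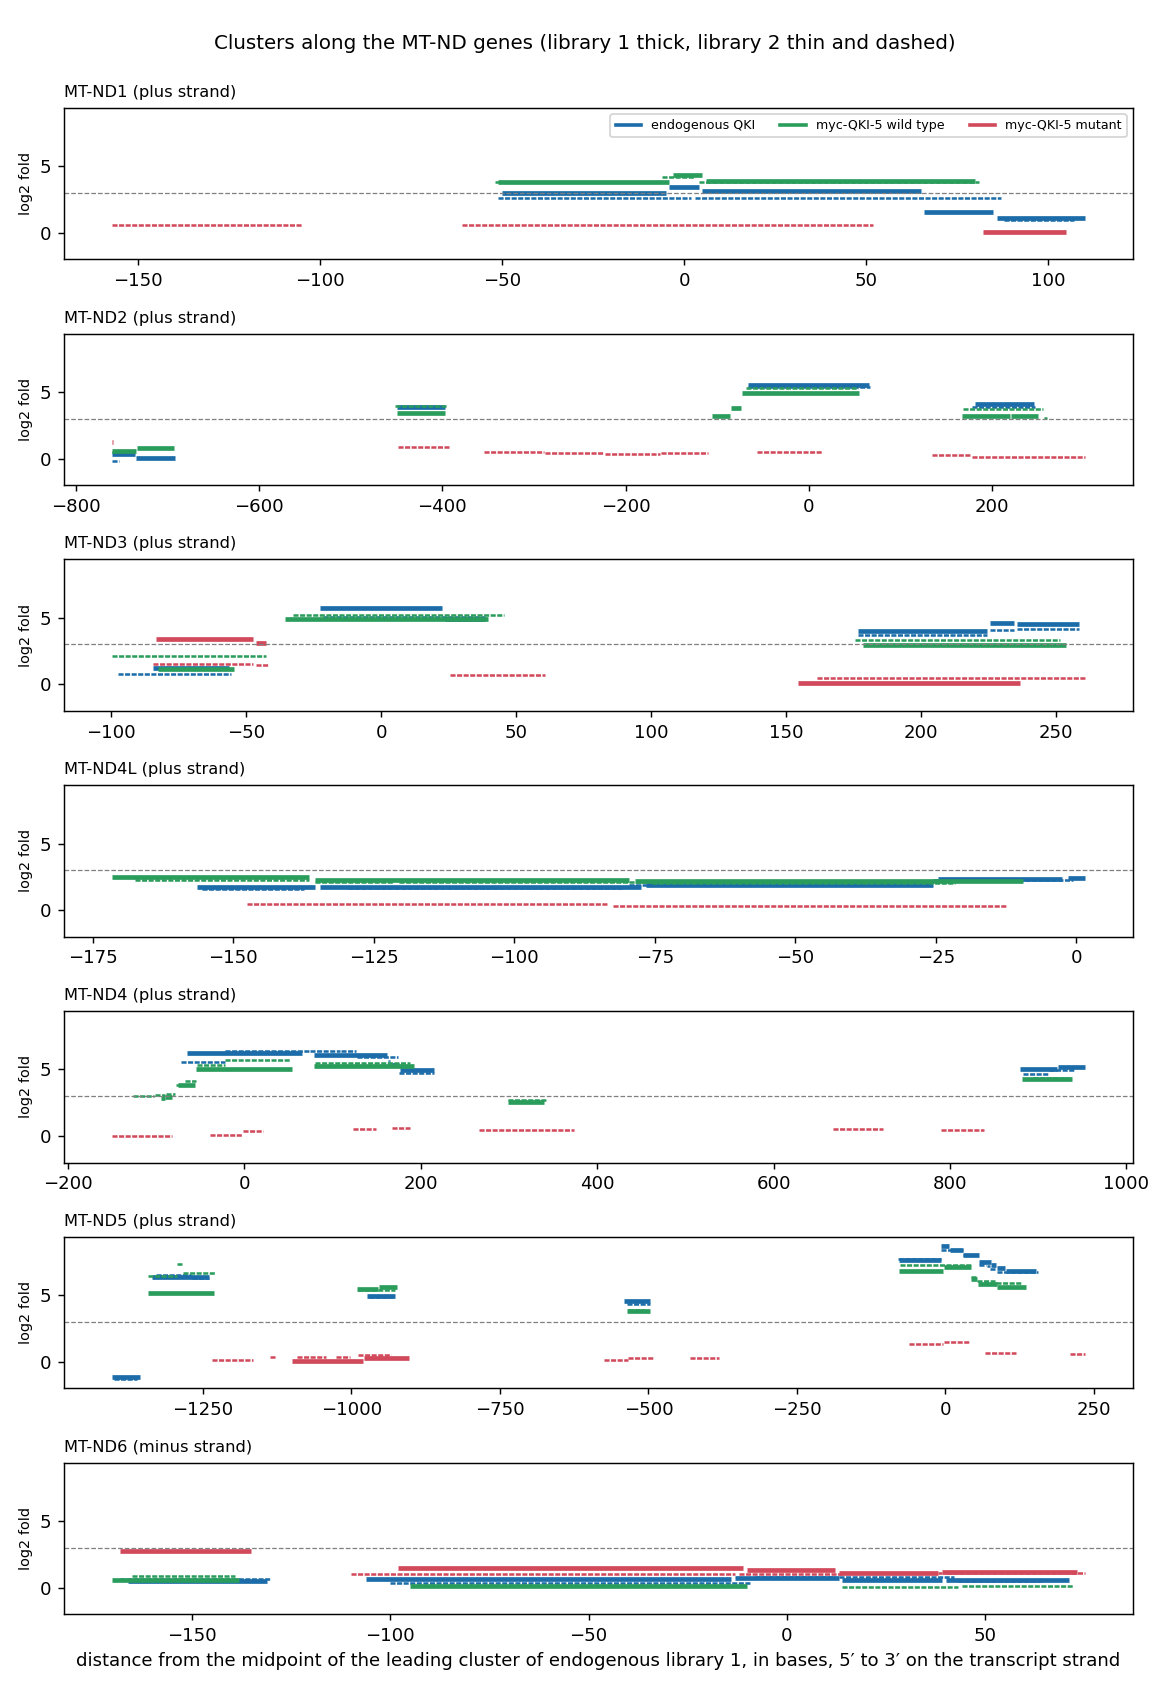
Clusters of the 6 libraries along each gene as horizontal bars, by log2 fold (vertical axis) and distance in bases from the midpoint of the leading cluster of endogenous library 1 (horizontal axis, 5′ to 3′ on the transcript), with clusters up to 60 bases beyond the outer loci, some of them of neighbouring tRNAs. Most wild type bars overlap endogenous bars, mutant bars lie low on the plus-strand genes, and at MT-ND6 the mutant bars lie above the others.

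Across the 22 loci measured in all wild type and endogenous libraries, the mean wild type and mean endogenous log2 folds had a Pearson's r of 0.958 and a Spearman's rho of 0.938. On the plus strand alone (20 loci) they were 0.937 and 0.918. These are descriptions across loci, some of which share a wild type cluster and all of which share libraries. With limma over 32631 regions that had a cluster in all 4 libraries, 0 of 17 member regions passed an adjusted p of 0.05 in either direction. Across the genome 0.797% of regions passed as higher in wild type and 5.68% as lower (260 and 1852 regions, or 398 and 288 after centring of each library). At an unadjusted p under 0.05 there were 0 member regions, and 4.86% higher and 20.6% lower across the genome. The lowest difference was at MT-ND5, chrM:13601-13836 (−1.32, SE 0.65, limma adjusted p = 0.214), and the highest at MT-ND1 (1.20, SE 0.66, limma adjusted p = 0.271). These misses do not show that the values are alike: on simulated data the test called 0% of regions shifted by 1 and 20% of those shifted by 2. Only 50 regions were shifted at each size there, and more regions passed in the real fit. Its adjusted threshold was thus less strict, and the simulated rates may be too low for it.

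**Figure D3:**
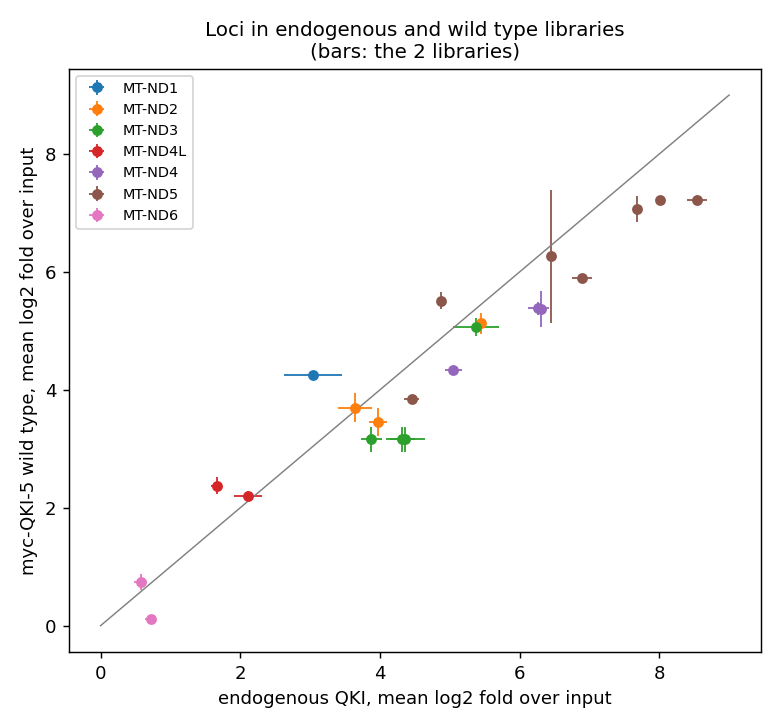
Mean log2 fold over input of each locus in the endogenous (horizontal) and wild type (vertical) libraries, coloured by gene, with bars from the lower to the higher of the 2 libraries and the line of equality in grey. MT-ND1 lies above the line, all 3 MT-ND4 loci and 6 of 7 MT-ND5 loci lie below it, and MT-ND6 lies near the origin.

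Only 3 member regions had a cluster in all 4 myc libraries and could be tested for wild type against mutant with limma, among 5356 regions, of which 0.597% were higher and 0.0187% lower in wild type. The MT-ND5 region chrM:12580-12778 was at 5.66 and 5.37 in wild type and 0.30 and 0.50 in the mutant, and it was higher in wild type (difference 5.11, SE 0.48, limma adjusted p = 0.00778). The region no longer passed when mutant library 1 was left out (limma adjusted p = 0.101, difference 5.02) or mutant library 2 (adjusted p = 0.162, difference 5.21). The MT-ND3 region chrM:10256-10362 was at 2.95 and 3.37 against 0.12 and 0.47 and missed the threshold (difference 2.87, SE 0.49, limma adjusted p = 0.0536). Requiring a mutant cluster leaves out most plus-strand loci.

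MT-ND6 is the member on the minus strand. Its first locus, chrM:14265-14442, was at 0.64 and 0.79 in endogenous, 0.10 and 0.13 in wild type and 1.50 and 1.04 in the mutant. Its second locus, chrM:14466-14504, was at 0.48 and 0.67, 0.61 and 0.88, and 2.79 in mutant library 1, with no cluster listed in mutant library 2. Both mutant libraries lay above both wild type libraries at the first locus, and the leading MT-ND6 cluster of mutant library 1 ranked 884th of 231814. No MT-ND6 locus was enriched in any library. Of 6 member loci listed in all 4 myc libraries, 5 had both wild type values above both mutant values (33% across the genome) and 1, of MT-ND6, had the reverse (19.3%). The 3 MT-ND3 loci among the 5 share clusters, so these are 3 separate sets of clusters, of MT-ND1, MT-ND3 and MT-ND5.

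The gene median of MT-ND6 was 0.43 ± 0.11 (SD, n = 2) for wild type and 1.59 ± 0.78 (SD, n = 2) for the mutant, with an exact permutation p of 0.33. The difference of −1.16 was −0.62 without mutant library 1 and −0.90 with missing loci set to 0. The limma difference at chrM:14261-14446 was −1.16 (SE 0.49, limma adjusted p = 0.395, unadjusted p = 0.0437). Within a library, the MT-ND6 median minus that of the plus-strand genes was −4.35 and −4.16 in endogenous, −3.96 and −4.29 in wild type, and 2.02 and 0.54 in the mutant (wild type against mutant, exact permutation p = 0.33). The mutant values rest on 5 and 18 of 21 plus-strand loci and on 2 and 1 of 2 MT-ND6 loci, so they do not cover the same loci as wild type.

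Other minus-strand clusters of chrM, and some on the plus strand, were also higher in mutant library 1 than in wild type. The cluster at the proline tRNA gene MT-TP was at 0.98 and 0.46 in endogenous, 1.12 and 1.00 in wild type, 4.32 in mutant library 1 and not listed in library 2. At the tyrosine tRNA gene MT-TY the mutant values were 4.23 and 0.36 beside 1.74 and 1.81 in wild type. MT-TC, also on the minus strand, had mutant values of 3.25 and 1.28 at positions 1 and 2, beside 0.28 and not listed in wild type. At MT-TC position 3 they were 3.40 and 0.36 beside 1.55 and 1.62. Positions 1 and 2 share their myc clusters and position 3 overlaps the MT-TY locus, so these are not all separate measurements. The glycine tRNA gene MT-TG, on the plus strand before MT-ND3, had 3.38 and 1.94 in the mutant libraries, against 1.14 and 2.12 (wild type) and 1.24 and 0.79 (endogenous). Of other plus-strand tRNA genes, MT-TI and MT-TM were at 1.83 and 1.27 in mutant library 1, above wild type (0.40 and 1.23, and 0.54 and 0.52). MT-TH, MT-TS2 and MT-TV were below wild type there, and MT-TF lay between the wild type values. The mutant libraries differed from each other at MT-TY and MT-TG by more than the wild type libraries did, and the part of this in the MT-ND6 values was not tested.

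**Figure D4:**
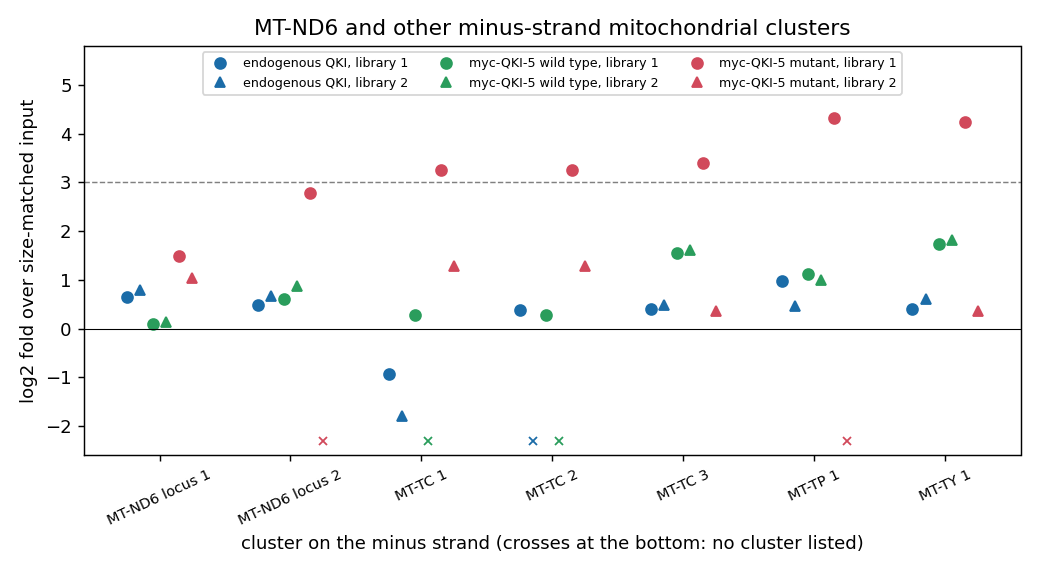
Log2 fold over input at the MT-ND6 loci and at the minus-strand tRNA clusters of chrM, in 6 libraries (colour for the group, circle for library 1, triangle for library 2, crosses for no listed cluster). Mutant library 1 is the highest at every position shown. Mutant library 2 is above wild type at the first MT-ND6 locus and at MT-TC 1 and 2, where only wild type library 1 is listed. It is below wild type at MT-TC 3 and MT-TY.

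Complex I transcripts were set against 26 loci of the other mitochondrial mRNAs and ribosomal RNAs (MT-CO1, MT-CO2, MT-CO3, MT-CYB, MT-ATP6, MT-ATP8, MT-RNR1 and MT-RNR2). Of the 26, 12 are loci of MT-RNR2, which had low folds and no enriched locus in any library. The complex I median was higher by 2.58 and 3.34 in endogenous and by 2.78 and 2.32 in wild type, and differed by 0.06 and −0.10 in the mutant. Wild type exceeded the mutant by 2.57 in this difference (exact permutation p = 0.33). Mutant library 1 listed only 2 of the 26 other loci and 7 of the 23 complex I loci, and mutant library 2 listed 18 and 19. The mutant differences thus rest on fewer and different loci than those of wild type. With missing clusters set to 0 the 2.57 became 2.46. Against the other mRNAs alone, without ribosomal RNAs, the difference of wild type from the mutant was 0.90, a setting added after seeing the data. There mutant library 1 listed only 1 of 12 other mRNA loci. For the plus-strand genes against the 12 loci of those mRNAs the differences were 0.64 and 1.23 in endogenous and 1.17 and 0.98 in wild type. Of these 12 loci, 9 and 8 were enriched in endogenous, 7 and 7 in wild type and 0 and 0 in the mutant. In endogenous MT-CO2 was at 7.63 and 7.58 and MT-ATP6 reached 6.92 and 6.80, above every MT-ND gene but MT-ND5. Enrichment that was absent in the mutant was thus not particular to complex I transcripts.

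In the authors' deposited tables of reproducible peaks, 29 of 12409 endogenous peaks lay on these genes, of 46 on chrM: 12 on MT-ND5, 8 on MT-ND4, 5 on MT-ND3, 3 on MT-ND2 and 1 on MT-ND1. The authors' deposited table for wild type held 26 of 3671, of 41 on chrM: 11 on MT-ND5, 6 on MT-ND4, 4 on MT-ND2, 3 on MT-ND1 and 2 on MT-ND3. The authors' deposited table for the mutant had 0 of 55. MT-ND4L and MT-ND6 had none in any list. Each list is 1 set from a pair of libraries and has no replicate error.

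The nuclear complex I genes had an enriched share near that of all clusters. All 52 of them had clusters in the endogenous libraries, of which 39 of 1017 (3.83%) and 33 of 640 (5.16%) were enriched, beside 4.22% and 5.39% of all clusters. An enriched cluster was found in 16 of 52 genes: 1 of 7 core subunits, 7 of 30 accessory subunits and 8 of 15 assembly factors. These classes had 87 and 62, 363 and 220, and 567 and 358 clusters. By cluster the enriched shares were 0% and 1.61%, 4.41% and 5.91%, and 4.06% and 5.31%. Counts of genes were not adjusted for the number of clusters, and the share over all genes was not computed. In wild type 7 and 4 genes had an enriched locus, and in the mutant 0 and 0. The most enriched clusters, summed over both libraries, were in COA1 (14), NDUFAF2 (9) and NUBPL (8), which encode assembly factors, and in NDUFA10 (7), NDUFS4 (6) and NDUFA3 (5), which encode accessory subunits. NDUFA9, another accessory subunit gene, tied with NDUFA3 at 5. The leading loci of the first 6 were in introns. The NDUFA10 locus was at 4.80 and 6.07 in endogenous, 5.32 and 5.10 in wild type, and 2.19 and not listed in the mutant. The COA1 locus was at 3.89 and 5.32 in endogenous but only 2.61 and 2.25 in wild type.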

How the data were processed

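The submitters' processing notes name STAR, cutadapt, SAMtools and UMI-tools with build hg19. Tool versions, the peak caller and read depths: not given in the sources used here. Values are the authors' log2 fold of a cluster over its size-matched input and the authors' −log10 p, as deposited. The myc files and reproducible lists hold a deposited browser score, which was not used. The number of clusters in a library ranged from 226962 to 384347.

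Gene names and coding bases were read from the endogenous annotation columns. Myc clusters were matched by at least 1 shared base on the same strand. For single regions, clusters were merged over the whole genome, and regions with a cluster in all 4 libraries of a comparison were fitted with limma 3.58.1 (lmFit and eBayes, R 4.3.3), with Benjamini-Hochberg adjustment over all regions. Library values were compared by exact permutation over libraries, two-sided (Python 3.11.15). On simulated data made like the wild type and mutant libraries (5356 regions), limma called 6%, 78%, 98% and 100% of regions shifted by 1, 2, 3 and 4 in log2 units and 0.213% of unshifted ones. Each simulation shifted 50 regions at each size, so these rates need not equal those of the real fits. The labels do not say that a number marks a shared culture or day, so numbers were not used as pairs in the main fits. Same-numbered libraries did not deviate together (correlations −0.04 and 0.01).

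Members and gene lists were chosen with earlier results of these data known. Loci named with full values were, per gene, the one with the highest mean endogenous fold among those enriched in both endogenous libraries, or else the highest mean, with any region past a limma threshold. Nuclear genes named were the 6 with the most enriched clusters, ties broken by symbol, and NDUFA9 is named as the tied gene. The first MT-ND5 locus, the second MT-ND6 locus, the tested MT-ND3 and MT-ND6 regions, the highest and lowest region of wild type against endogenous and the tRNA clusters fall outside this rule and were named after their values were seen. Motifs were not searched and no sequence is printed, since no mitochondrial sequence of the build was used here.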

Additional observations from a re-analysis of the deposited data

How the results depend on the processing

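Alternatives were other enrichment thresholds, single-library anchors, the choice and overlap of clusters, single gene names, missing values as 0, other limma settings and each library left out. The sign of every difference between wild type and mutant in enriched loci, medians, genes and tested regions stayed under those run for it. The difference in enriched loci was 16.5 and became 29.5 and 26.5 with the unmerged clusters of endogenous library 1 and 2 as anchors, which are more numerous than loci. Without 1 library it ranged from 15 to 18. Member regions higher in wild type by limma numbered 1 and ranged from 0 to 1 without 1 library. They numbered 2 with centring, 2 with a filter on −log10 p, 3 with the spread of all 6 libraries (4 tested), 14 with missing values as 0 (18 tested) and 15 in a fit chosen after seeing the data. That fit keeps regions listed in both wild type libraries and sets missing mutant values to 0, so its filter favours wild type, and it called 29611 of 70546 regions higher. The MT-ND6 region was lower in wild type there (limma adjusted p = 0.0369) but not in the planned fit with missing values as 0 (0.1005). The difference in medians was 4.24 without MT-ND6 and 3.98 without the mostly noncoding MT-ND2 cluster, settings also added later, and neither held an enriched locus. Centring moved the median difference of all regions from −0.26 to 0.01 against the mutant and from −0.48 to 0.12 against endogenous. Over the genome, regions higher in wild type numbered 32, and 0 without mutant library 1, 0 without mutant library 2 and 11126 with missing values as 0. The MT-ND3 region passed with centring (limma adjusted p = 0.0146), the filter (0.0222), missing values as 0 (0.0415) and the shared spread (0.00658). With the replicate block, 1 region was called, the MT-ND5 region (limma adjusted p = 0.0062), and the paired differences of 16.5 loci, 3.98 in the median and 2.57 against other transcripts equal the unpaired ones by construction. Against endogenous, 0 member regions passed in each fit, including the block, while over the genome the block called 632 higher and 3559 lower (260 and 1852 without it), and centring 398 and 288. Unknown read depth limits low folds, and the causes of these changes were not tested.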
